A study of Homo sapiens with 5 samples.

Results

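The cyclin D, CDK and RB axis was examined in HEK293 cells through 10 genes, namely the D-type cyclins CCND1, CCND2 and CCND3, the kinases CDK2, CDK4 and CDK6, the E-type cyclin CCNE1, the inhibitors CDKN2A and CDKN2C, and the pocket protein gene RB1. They were chosen by name, with earlier results of these data known, and all 10 had a row among the 24497 gene rows of the deposited count table. HEK293 is an established human line from embryonic kidney that was transformed with adenovirus DNA and expresses the viral protein E1A. Libraries that capture the 5' ends of polyadenylated transcripts were made from the material of 100 cells each, taken from a lysate of 1000 cells, with 3 libraries in batch B and 2 in batch A. All were made from untreated HEK293 cells, as far as the labels tell, and batch is the sole difference between the groups that the labels give. Libraries are named by the number that ends their column, 1 to 3 in batch B and 2 and 3 in batch A, which in batch A does not match the labelled replicate numbers.

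In the mammalian cell cycle, D-type cyclins couple mitogen signals to CDK4 and CDK6, and these kinases start the phosphorylation of RB1, which holds E2F transcription factors in check. Cyclin E with CDK2 continues that phosphorylation and E2F then drives genes of DNA replication. INK4 proteins, encoded by CDKN2A and CDKN2C, bind CDK4 and CDK6 and block them, and CDKN2A also encodes a protein of another reading frame, ARF. E1A binds RB1 and the related pocket proteins and frees E2F, a textbook route by which adenovirus drives cells into S phase. Protein activity, phosphorylation and E1A itself were not measured here.

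Depth was 373687 to 685181 gene counts in batch B and 686883 and 803168 in batch A, so that 3 counts, taken as the limit behind a count of 0, correspond to 3.74 CPM (counts scaled to a gene total of 1000000) in batch A library 3 and to 8.03 CPM in batch B library 1. Spike-in RNA (ERCC) gave 1 to 19 counts per library in batch B and 1785 and 2127 in batch A, and its part in the differences between batches was not tested. The labels do not say whether libraries came from separate cultures, so a p-value here reflects library-to-library spread, possibly technical only. Markers of the line were present. The 8 genes listed for it, led by the intermediate filament vimentin (VIM), summed to 768 to 859 CPM in batch B and to 719 and 731 CPM in batch A, although INA was at 0 in batch B library 2 and PAX2 did not exceed 4.98 CPM in any library. Of 9 markers of other cell types, 6 had a row, and these summed to 8.69 to 21.9 CPM in batch B and to 5.82 and 11.2 CPM in batch A, of which COL1A1 made 6.95 to 19.0 CPM in batch B and 4.37 and 11.2 CPM in batch A. COL1A2 (fibroblasts), ALB (hepatocytes) and UMOD (mature kidney) were at 0 in all 5 libraries. In a bulk library, fewer cells in a phase of the cycle and less RNA per cell cannot be told apart.

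Promoters of the most abundant gene (CDK4), the least abundant (CCNE1) and the gene with the largest ratio of estimate to error between batches (CDKN2A) are shown because 5'-end counts arise at transcription starts, and the CDKN2A row adds up transcripts from separate starts. Promoter windows from RefSeq (build GRCh38.p14, not the build of the count table) were matched by symbol for 7 of the 10 genes, in 13 windows, and each is given here as the 250 bases before a transcription start. Of the searched letters, capitals mark CACGTG, the E-box bound by MYC and its relatives, in CDK4, and GGGCGG or its complement, the GC box bound by SP1, in CCNE1 and CDKN2A. CDK4 lies on the minus strand, chr12:57752311-57752560, CCNE1 on the plus strand, chr19:29811741-29811990, and CDKN2A on the minus strand, chr9:21995325-21995574 for the distal start (ARF) and chr9:21974858-21975107 for the proximal start (INK4A).
CDK4: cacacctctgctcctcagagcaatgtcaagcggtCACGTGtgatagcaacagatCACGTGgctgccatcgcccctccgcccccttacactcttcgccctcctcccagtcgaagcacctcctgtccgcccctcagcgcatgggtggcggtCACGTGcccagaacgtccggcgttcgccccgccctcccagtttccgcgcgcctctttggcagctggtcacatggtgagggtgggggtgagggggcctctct
CDKN2A, ARF start: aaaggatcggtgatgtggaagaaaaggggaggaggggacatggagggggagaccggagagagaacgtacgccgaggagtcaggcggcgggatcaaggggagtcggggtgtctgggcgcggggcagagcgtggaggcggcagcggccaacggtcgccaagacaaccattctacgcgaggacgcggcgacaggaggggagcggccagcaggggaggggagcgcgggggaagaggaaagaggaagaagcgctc
CDKN2A, INK4A start: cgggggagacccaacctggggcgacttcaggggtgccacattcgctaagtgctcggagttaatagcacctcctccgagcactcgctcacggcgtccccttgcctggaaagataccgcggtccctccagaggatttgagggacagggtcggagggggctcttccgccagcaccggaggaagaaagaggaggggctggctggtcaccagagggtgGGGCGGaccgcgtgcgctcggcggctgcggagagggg
CCNE1: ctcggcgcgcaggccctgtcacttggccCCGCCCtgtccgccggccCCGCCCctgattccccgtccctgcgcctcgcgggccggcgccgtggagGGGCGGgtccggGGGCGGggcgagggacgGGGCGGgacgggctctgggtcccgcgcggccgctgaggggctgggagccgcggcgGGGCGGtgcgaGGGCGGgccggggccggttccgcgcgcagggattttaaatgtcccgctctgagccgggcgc

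The CDK4 window held 3 E-boxes, and also 3 GC boxes, which are not marked. At least 1 E-box was found in 6.34% of the 35116 windows of this length in the table, and 3 or more in 0.0797% of them. Marking the E-box in CDK4 alone was a choice, and windows of CDKN2C held an E-box too. The CCNE1 window, of 81.2% G or C beside a median of 58.0% over all windows, held 7 GC boxes. Of all windows, 13.9% held 3 or more. The ARF window of CDKN2A held 0 and its INK4A window 1 GC box, and 42.6% of all windows held at least 1. An E2F site was searched on both strands as TTTCCCGC, TTTCGCGC, TTTGCCGC or TTTGGCGC and occurred in 2.79% of all windows. It occurred in 0 of the 13 windows of these genes, which says only that these letters are not in those windows. CCND1, CCND2 and CDK2 had no window and were not searched. The only RB1 window was chr13:48476200-48476449, of 36.8% G or C. Coding transcripts of RB1 have 4 annotated starts, and whether this window lies before the main start was not tested. The search therefore does not tell whether the main RB1 promoter holds an E2F site. Windows of 1 gene can overlap, and a match of letters is not a measured binding site.

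Expression of the 10 genes spanned 35.3 to 328 CPM on average over the 5 libraries, and CDK4 and CDKN2A stood far above the rest. CDK4, the kinase partner of D-type cyclins, averaged 328 ± 14.9 CPM and CDKN2A averaged 306 ± 38.5 CPM (SD, n = 5), which put them at ranks 499 and 559 of the 20087 genes with a count. CCND2 followed at 136 ± 18.1 CPM. CDK6, CDK2, CCND3, CCND1 and CDKN2C lay close together, between 98.6 and 86.3 CPM, RB1 averaged 58.2 ± 15.3 CPM and CCNE1 35.3 ± 10.8 CPM (SD, n = 5). Even CCNE1 lay above 72.2% of the genes with a count, and CDK4 lay above 97.5% of them.

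Several steps of this order were not larger than the spread between libraries. CDK4 exceeded CDKN2A in 3 of the 5 libraries, CDK6 exceeded CDK2 in 3, CCND3 exceeded CCND1 in 2 and CCND1 exceeded CDKN2C in 3. CDK2 exceeded CCND3 and RB1 exceeded CCNE1 in 4 of 5 libraries each. The steps from CDKN2A to CCND2, from CCND2 to CDK6 and from CDKN2C to RB1 held in all 5 libraries, with ratios of CPM of 1.67 to 2.98, 1.14 to 1.54 and 1.15 to 2.17. Because reads were taken at 5' ends, counts need not grow with transcript length, and CPM is the scale used here unless length is named. On the scale of CPM per kilobase, with the median length of the coding transcripts of each gene in GENCODE 29, CDK4 (425) and CDKN2A (375) still led, CDKN2A exceeded the next gene, CDK2 (63.7), in all 5 libraries, and CDK6, whose annotated transcripts are long, came last at 15.1.

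**Figure D1:**
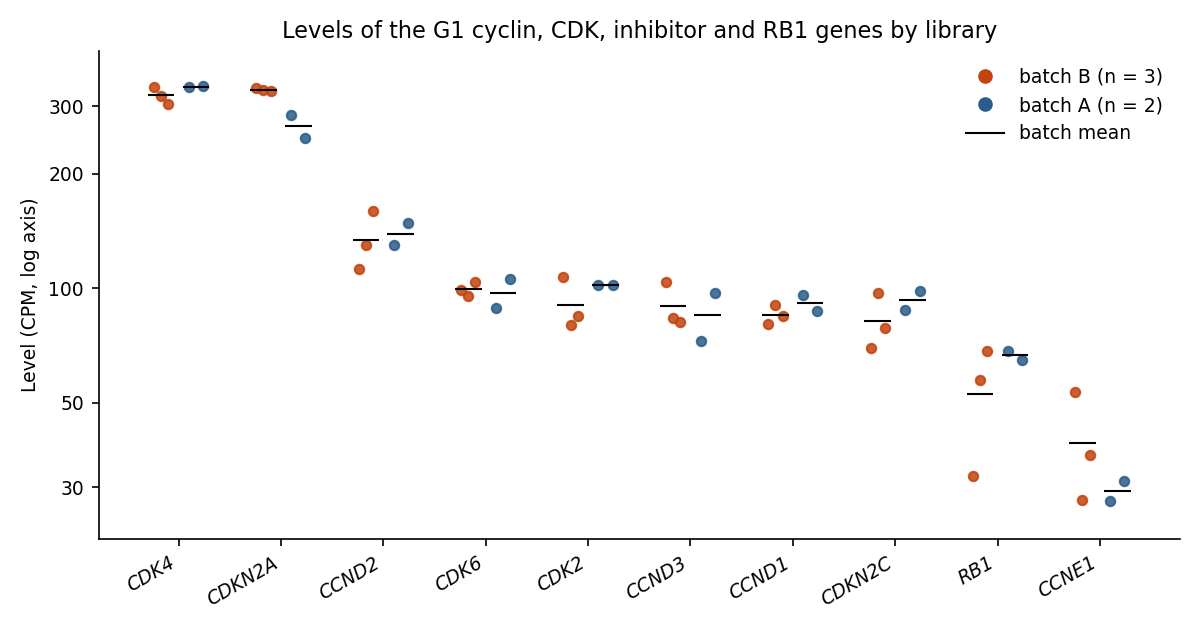
Level of each gene in CPM (log axis) in batch B libraries (orange, n = 3) and batch A libraries (blue, n = 2), with a line at each batch mean and genes in order of their mean over all libraries. CDK4 and CDKN2A sit at 248 CPM or above in every library, and all other genes at 159 CPM or below.

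The D-type cyclins are the regulatory subunits of CDK4 and CDK6, and all 3 were expressed in every library, with CCND2 the most abundant. CCND2 had 112, 130 and 159 CPM in batch B libraries 1, 2 and 3, against 130 and 148 CPM in batch A libraries 2 and 3. CCND1, the family member most often amplified in tumours, had 80.3, 90.4 and 84.6 CPM in batch B, against 96.1 and 87.2 CPM in batch A. The third member, CCND3, had 104, 83.4 and 81.7 CPM in batch B, against 72.8 and 97.1 CPM in batch A. The batches overlapped for all 3 cyclins, and batch B library 1 held the lowest CCND1 and CCND2 values and the highest CCND3 value of all libraries.

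CCND2 was the largest part of D-type cyclin counts in every library, but in batch B library 1 it had 42 counts and CCND3 had 39. CCND2 took 43.2% ± 5.53 of D-type cyclin counts in batch B (SD, n = 3) and 44.0% ± 0.816 in batch A (SD, n = 2). CCND1 took 27.6% ± 1.91 in batch B and 29.2% ± 4.23 in batch A, and CCND3 took 29.2% ± 5.25 and 26.8% ± 3.41. The lowest CCND2 share, 37.8% in batch B library 1, had a 95% exact binomial interval of 28.8 to 47.5, which overlaps that of the highest share, 48.9% in batch B library 3 (42.1 to 55.6). Intervals of this kind cover counting error only, and they take each count as a separate molecule. Libraries had 18 PCR cycles, and whether molecular identifiers were collapsed is not given, so the intervals may be too narrow. Divided by transcript length, the order changed, and CCND3 led with 40.4% on average, ahead of CCND2 with 30.8% and CCND1 with 28.8%.

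Among the kinases, CDK4 carried most of the counts. CDK4 had 337, 320 and 305 CPM in batch B libraries 1, 2 and 3, against 338 and 339 CPM in batch A libraries 2 and 3. CDK6, the other kinase that pairs with D-type cyclins, had 99.0, 95.6 and 104 CPM in batch B, against 88.8 and 106 CPM in batch A. CDK2, the partner of cyclins E and A, had 107, 79.9 and 84.6 CPM in batch B, against 102 and 102 CPM in batch A. For CDK4 each batch B library lay below both batch A libraries, the nearest at 337 CPM against 338 CPM, whereas CDK6 and CDK2 overlapped.

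Of the summed counts of CDK2, CDK4 and CDK6, CDK4 took 62.8% ± 1.51 in batch B (SD, n = 3) and 62.9% ± 1.38 in batch A (SD, n = 2), with single libraries between 61.8% and 64.6%. CDK6 took 19.5% ± 1.40 in batch B and 18.1% ± 1.81 in batch A, and CDK2 took 17.7% ± 1.84 and 19.0% ± 0.428. With counts divided by transcript length CDK4 took 84.4%, CDK2 12.6% and CDK6 3.0% on average. Counts of the D-type cyclins together came to 0.737 ± 0.0578 of those of CDK4 and CDK6 in batch B (SD, n = 3) and to 0.724 ± 0.0341 in batch A (SD, n = 2).

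**Figure D2:**
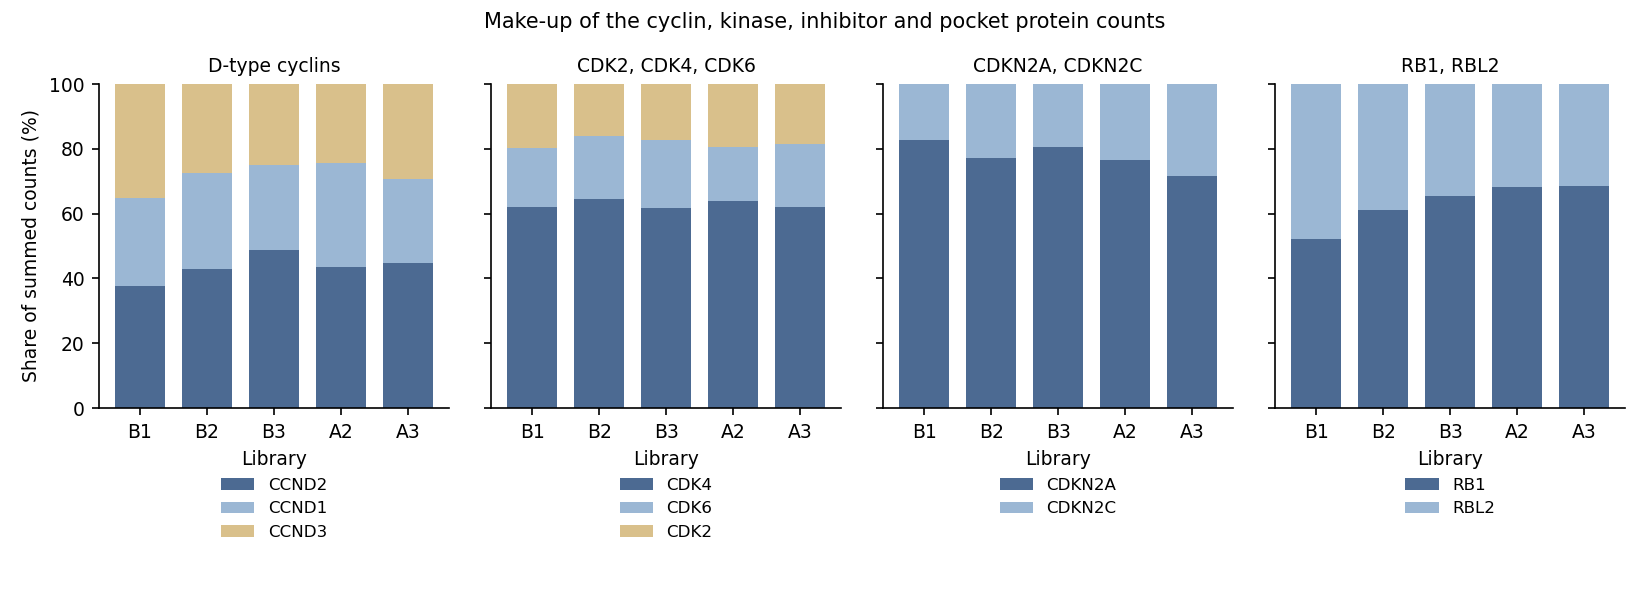
Share of the summed counts (percent) that each gene took among the D-type cyclins, among CDK2, CDK4 and CDK6, among CDKN2A and CDKN2C, and among RB1 and RBL2, in batch B libraries 1 to 3 (B1 to B3) and batch A libraries 2 and 3 (A2, A3). The CDK4 share varied least, between 61.8% and 64.6%, and the RB1 share was lowest in B1, at 52.2%.

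Cyclin E1, the activator of CDK2 at the entry to S phase, had the lowest summed counts of the 10 genes. CCNE1 had 53.5, 27.8 and 36.5 CPM in batch B libraries 1, 2 and 3, against 27.7 and 31.1 CPM in batch A libraries 2 and 3. These values rest on 16 to 25 counts per library, and the highest, in batch B library 1, had a 95% exact Poisson interval of 32.7 to 82.7 CPM. Batches overlapped, and D-type cyclin counts exceeded CCNE1 counts 5.55-fold in batch B library 1, 8.92-fold to 10.9-fold in the other batch B libraries and 10.7-fold and 10.8-fold in batch A.

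The inhibitor gene CDKN2A was expressed at about the level of its target CDK4. CDKN2A had 335, 332 and 330 CPM in batch B libraries 1, 2 and 3, against 284 and 248 CPM in batch A libraries 2 and 3. Its batch B values lay between 330 and 335 CPM, all above batch A. Within libraries CDKN2A counts were 1.04 ± 0.0446 of the CDK4 counts in batch B (SD, n = 3) and 0.786 ± 0.077 in batch A (SD, n = 2). In the pair of libraries of nearly equal depth, chosen after the values were seen, CDKN2A had 226 counts in batch B library 3 and 195 in batch A library 2. The row does not tell INK4A from ARF transcripts, since coding transcripts of CDKN2A have 10 annotated starts in GENCODE 29 and the deposited table sums them.

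CDKN2C, which encodes the INK4 protein p18, had 69.6, 97.3 and 78.8 CPM in batch B, against 87.4 and 98.4 CPM in batch A, and the batches overlapped. CDKN2A took 80.3% ± 2.75 of the summed CDKN2A and CDKN2C counts in batch B (SD, n = 3) and 74.0% ± 3.46 in batch A (SD, n = 2), with single libraries between 71.6% and 82.8%. The other INK4 genes were near the limit of detection. CDKN2B averaged 6.84 CPM and CDKN2D 7.16 CPM over the libraries, and neither passed the filter on low counts. Of the CIP/KIP inhibitors, which act on CDK2 complexes, CDKN1A (p21) averaged 46.8 ± 6.06 CPM in batch B and 49.2 ± 4.49 CPM in batch A, CDKN1B (p27) 32.6 ± 4.30 and 30.6 ± 8.13 CPM, and CDKN1C 16.7 ± 3.90 and 16.6 ± 2.91 CPM (SD, n = 3 and 2).

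RB1, the retinoblastoma protein gene and target of these kinases, was present in every library. It had 32.1, 57.3 and 68.6 CPM in batch B libraries 1, 2 and 3, against 68.4 and 64.7 CPM in batch A libraries 2 and 3. The value of batch B library 1, the shallowest, stood below the others and rests on 12 counts, with a 95% exact Poisson interval of 16.6 to 56.1 CPM. The batches overlapped through batch B library 3. RBL2, the related pocket protein p130, averaged 34.1 ± 4.07 CPM in batch B (SD, n = 3) and 31.0 ± 1.52 CPM in batch A (SD, n = 2), and RBL1 (p107) was not analysed here. RB1 took 52.2%, 61.1% and 65.3% of the summed RB1 and RBL2 counts in batch B libraries 1, 2 and 3, against 68.1% and 68.4% in batch A libraries 2 and 3, with exact binomial intervals that all overlap. RB1 counts came to 0.159 ± 0.0573 of CDKN2A counts in batch B and 0.251 ± 0.0143 in batch A.

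Annotated genes that overlap these loci on the opposite strand were read where the table has a row, and others, such as LTO1 at CCND1, were not analysed here. TSPAN31 and MARCH9, which overlap CDK4, had 3 to 14 and 8 to 18 counts in batch B libraries, against 20 and 13 (TSPAN31) and 13 and 26 (MARCH9) in batch A libraries 2 and 3. PMEL (CDK2), CDKN2B-AS1 (CDKN2A), CCND2-AS1 (CCND2) and RCBTB2 and LPAR6 (RB1) had at most 6 counts in any library. The sources used here do not say whether counting used strand, so reads of overlapping genes may not be told apart.

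Batch B was set against batch A to ask whether these genes keep their levels between batches of 1 line. No member was called. By edgeR's quasi-likelihood test over 9215 genes with Benjamini-Hochberg adjustment, 0 of 10 members passed an adjusted p under 0.05, against 4.2% of all tested genes. 1 of 10, CDKN2A, had an unadjusted edgeR p under 0.05, and that share was not computed over all tested genes. DESeq2 also called 0, against 104 of 5288 genes with an adjusted p, and gave CCNE1 no adjusted p. With limma-voom 0 were called, against 355 of 9215 genes. CDKN2A was the nearest, with a log2 fold change of 0.35 (SE 0.11, 95% interval 0.12 to 0.57), higher in 3 of 3 batch B libraries than in both batch A libraries, at an edgeR adjusted p of 0.0522. It was called in 1 of 13 alternative fits, whose adjusted p ran from 0.0497 with the column number as a block to 0.574 without batch A library 3, where the log2 fold change was 0.23. In fits without a batch A library, the 1 library left is assumed to vary as those of batch B do. The batches did not overlap for 2 of the 10 genes, CDKN2A and CDK4, against 31.3% of all tested genes.

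For the other 9 genes the 95% interval of the log2 fold change included 0, and its width says how large a difference these libraries leave possible. CDK4 had the narrowest, with a log2 fold change of -0.06 (95% interval -0.28 to 0.15), or 0.823-fold to 1.11-fold in batch B over batch A. CCND2 was at 0.00 (-0.29 to 0.30), CCND1 at -0.07 (-0.44 to 0.30) and CCND3 at 0.06 (-0.32 to 0.43). CDK6 was at 0.05 (-0.30 to 0.40), CDK2 at -0.18 (-0.54 to 0.18) and CDKN2C at -0.14 (-0.52 to 0.23). The least certain were RB1, at -0.23 (-0.67 to 0.22), or 0.627-fold to 1.16-fold, and CCNE1, at 0.37 (-0.25 to 0.99), or 0.838-fold to 1.99-fold. The median over the 10 genes was -0.03, beside 0.004 over all tested genes. Leaving out each library in turn gave RB1 values between -0.06, with batch B library 1 omitted, and -0.45, with batch B library 3 omitted. CCNE1 ran between 0.15, with batch B library 1 omitted, and 0.56, with batch B library 2 omitted.

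**Figure D3:**
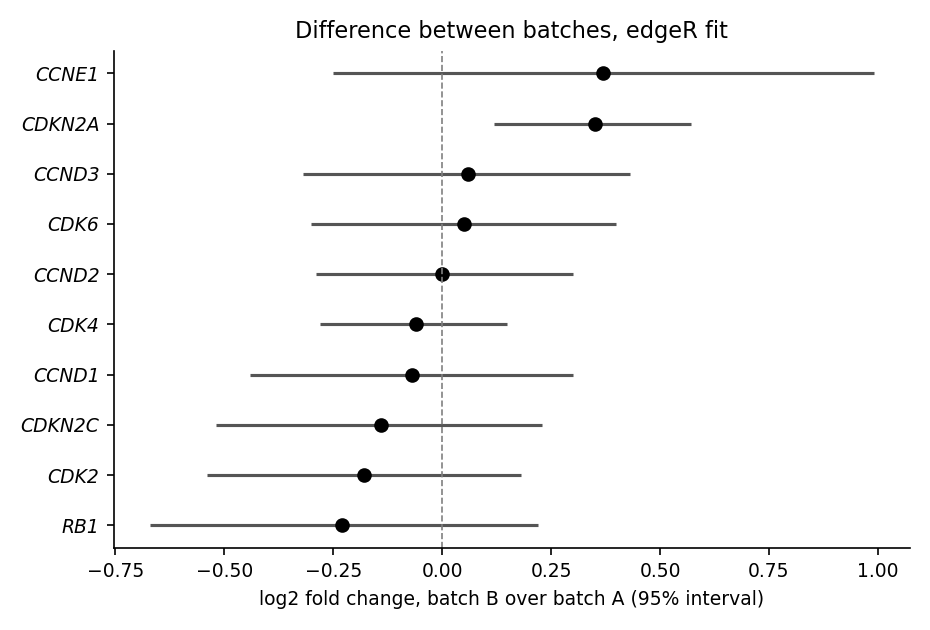
log2 fold change of batch B over batch A for each of the 10 genes (points) with its 95% interval from the edgeR fit (bars). The interval of CDKN2A, 0.12 to 0.57, lies above 0 and those of the other 9 genes include 0.

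**Figure D4:**
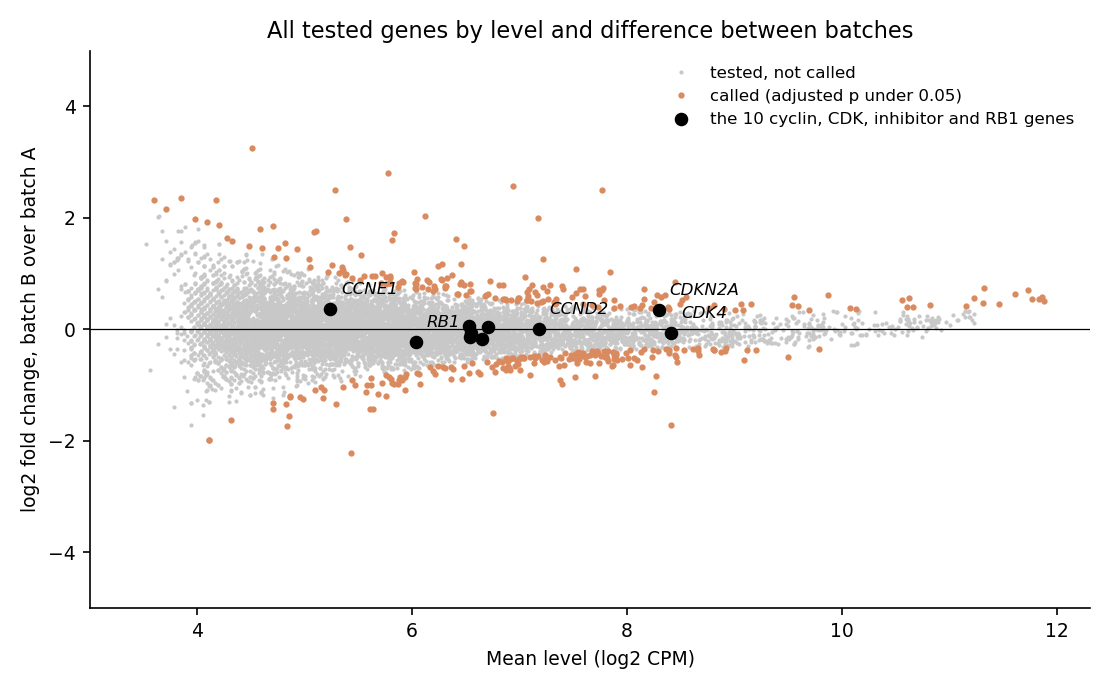
log2 fold change of batch B over batch A against mean level (log2 CPM) for all 9215 tested genes, with called genes in orange and the 10 cyclin, CDK, inhibitor and RB1 genes in black. The 10 black points lie between -0.23 (RB1) and 0.37 (CCNE1), and 0 of them were called.

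Partners around the axis were read from lists of cell cycle genes. Most were not called, which also holds for all tested genes, of which 4.2% were called. The share called over these lists together was not computed. Of the 9 tested E2F and DP factors, 0 rose and 1 fell, against 2.15% of all tested genes called higher and 2.05% called lower in batch B. The one that fell was TFDP1, the DNA-binding partner of most E2F proteins, which had 118, 108 and 120 CPM in batch B libraries 1, 2 and 3, against 173 and 171 CPM in batch A libraries 2 and 3. Its log2 fold change was -0.56 (SE 0.15, edgeR adjusted p = 0.00995), lower in 3 of 3 batch B libraries, and the call was lost on leaving out library 2 or 3 of batch A, or library 2 of batch B (adjusted p up to 0.137), and with DESeq2 (0.124). TFDP2 averaged 87.6 ± 14.5 CPM in batch B and 77.9 ± 23.7 CPM in batch A, and E2F4, a mainly repressive E2F, 79.5 ± 9.55 and 84.6 ± 12.2 CPM (SD, n = 3 and 2), and neither was called. The median log2 fold change of the list was 0.04.

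A list around CDK activation and the removal of inhibitors also held genes that restrain CDKs or remove cyclins, such as WEE1, PKMYT1 and FBXW7. Of its 14 tested genes 0 rose and 2 fell, against 2.15% and 2.05% of all tested genes. Their median log2 fold change was -0.10. SKP1, a subunit of the SCF ubiquitin ligase, had 241, 287 and 299 CPM in batch B, against 392 and 372 CPM in batch A, a log2 fold change of -0.42 (SE 0.11, edgeR adjusted p = 0.00756). CKS2, a small CDK-binding protein, had 377, 394 and 368 CPM in batch B, against 523 and 471 CPM in batch A, a log2 fold change of -0.36 (SE 0.11, edgeR adjusted p = 0.0228). All batch B libraries lay below both batch A libraries for these genes, and the batches did not overlap for 31.3% of all tested genes. The call of SKP1 was lost without batch A library 2 (adjusted p = 0.187), and that of CKS2 on leaving out library 2 of batch A, or library 2 or 3 of batch B (adjusted p up to 0.427), with DESeq2 (0.0803) and after thinning (0.314). RBX1, another SCF subunit and the most abundant gene of the list, averaged 439 ± 23.8 CPM in batch B and 547 ± 12.9 CPM in batch A (SD, n = 3 and 2) and was not called (edgeR adjusted p = 0.101).

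Downstream, 22 E2F target genes were tested, of which 3 rose, 1 fell and 18 were not called, against 2.15% called higher and 2.05% called lower among all tested genes. The median log2 fold change of the list was 0.05. CDT1, which licenses replication origins, had 254, 243 and 234 CPM in batch B, against 147 and 168 CPM in batch A, a log2 fold change of 0.64 (SE 0.13, edgeR adjusted p = 0.000147). MCM7, a subunit of the replicative helicase, had 615, 587 and 550 CPM in batch B, against 475 and 395 CPM in batch A. MCM4, another subunit, had 367, 313 and 336 CPM in batch B, against 242 and 275 CPM in batch A. The log2 fold changes of MCM7 and MCM4 were 0.45 (SE 0.11, edgeR adjusted p = 0.00294) and 0.39 (SE 0.11, edgeR adjusted p = 0.0206). GINS2, a cofactor of that helicase, had 171, 196 and 163 CPM in batch B, against 255 and 280 CPM in batch A, a log2 fold change of -0.58 (SE 0.13, edgeR adjusted p = 0.00045). The batches did not overlap for these 4 genes, nor for 31.3% of all tested genes. CDT1 was called in all 13 alternative fits. The call of GINS2 was lost without batch A library 3 (adjusted p = 0.0609). That of MCM7 was lost without batch A library 3 (adjusted p = 0.385) and after thinning (0.063). MCM4 lost its call in 7 of the 13 fits, namely on leaving out library 2 or 3 of batch A, or library 1 of batch B (adjusted p up to 0.285), with no filter (0.0743), after thinning (0.0552), with DESeq2 (0.114) and with the block (0.0515). PCNA, the sliding clamp, averaged 387 ± 33.6 CPM in batch B and 376 ± 4.98 CPM in batch A, and RRM1, a ribonucleotide reductase subunit, 372 ± 33.7 and 334 ± 13.2 CPM (SD, n = 3 and 2), and neither was called.

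Other cyclins and kinases of S phase and mitosis were not called. CCNA2, the S phase cyclin, averaged 128 ± 11.7 CPM in batch B and 150 ± 12.7 CPM in batch A (SD, n = 3 and 2). CDK1, the mitotic kinase, averaged 280 ± 15.5 CPM in batch B and 331 ± 9.05 CPM in batch A, with a log2 fold change of -0.21 and an edgeR adjusted p of 0.346. Its batch B libraries all lay below batch A, and the batches did not overlap for 31.3% of all tested genes. CCNE2, the other E-type cyclin, averaged 27.5 ± 13.3 CPM in batch B and 42.2 ± 1.99 CPM in batch A, with a log2 fold change of -0.71 and an edgeR adjusted p of 0.218. The MuvB and DREAM complexes repress or activate cell cycle genes together with pocket proteins or MYBL2. Of the 5 tested genes in a list around them, 0 were called, against 4.2% of all tested genes. That list held subunits and also MYBL2 and FOXM1, which are not MuvB subunits. RBBP4 averaged 308 ± 13.8 and 324 ± 27.8 CPM, MYBL2 286 ± 26.6 and 293 ± 7.66 CPM and FOXM1 96.9 ± 8.88 and 112 ± 8.55 CPM in batch B and batch A (SD, n = 3 and 2).

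**Figure D5:**
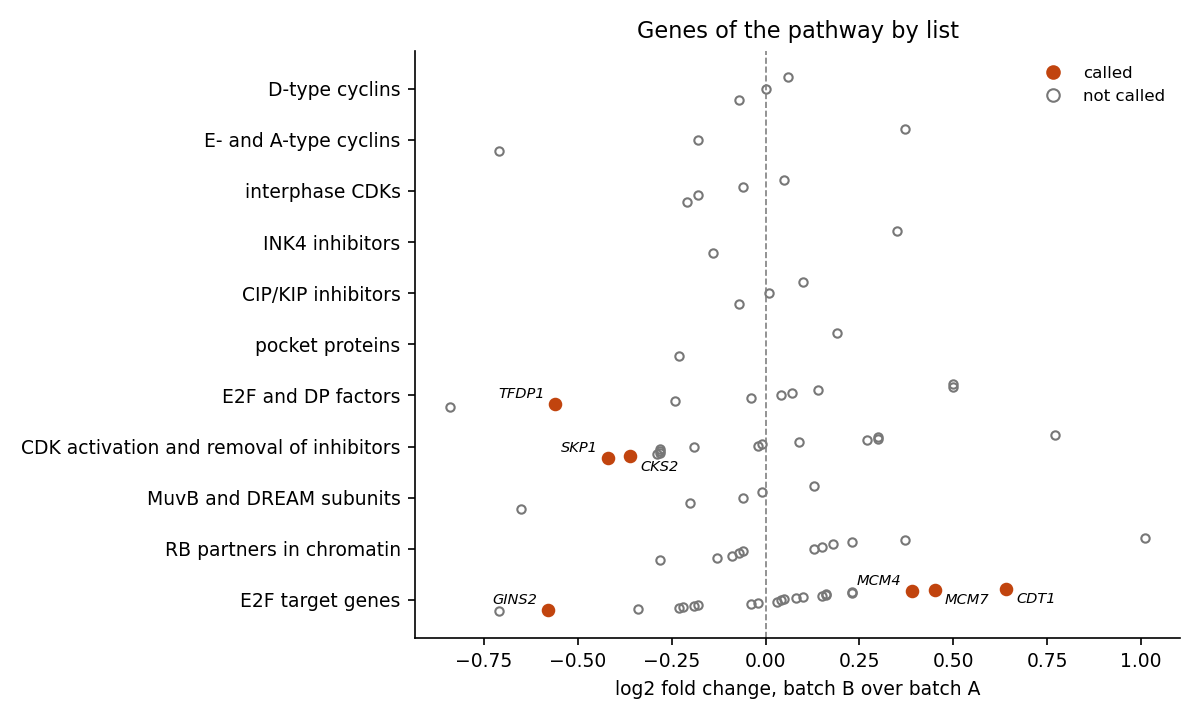
log2 fold change of batch B over batch A for the tested genes of each list around the axis, with called genes filled and named and the others open. The 7 called genes lie among E2F and DP factors, the list around CDK activation and removal of inhibitors, and E2F targets, between -0.58 (GINS2) and 0.64 (CDT1).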

How the data were processed

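The deposited table holds raw counts, whole numbers for each gene and library. The submitters' processing notes list cutadapt 1.2.1, STAR 2.4.0a, hg19 and GRCh37. How genes were annotated, whether strand was used and whether molecular identifiers were collapsed is not given in the sources used here. A column took its batch from the title prefix it carries. Of the table, 52 ERCC rows were left out of totals and tests, and 0 columns were unused.

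CPM used gene-count totals. The batch contrast (B over A) was fitted in R 4.3.3 by edgeR 4.0.16 (TMM on filtered counts, filterByExpr, quasi-likelihood F test, batch as the only term), with adjusted p under 0.05 over all 9215 tested genes as a call. Standard errors and intervals came from the working weights and the squeezed dispersion of that fit. Per-library intervals are exact at 95% if each count is a separate molecule. Alternatives were DESeq2 1.42.0, limma 3.58.1 (voom), other scalings, no filter, thinning to the smallest library and leaving out each library. Library sizes were recomputed after the filter, a choice made after values had been seen, and keeping those from before it is an added alternative, as is the column number as a block. The edgeR step was tested on simulated data. Transcript lengths, starts and overlaps came from GENCODE 29, on another build, so they carry no coordinates.

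Genes named outside the 10 are, for each list, every called gene and up to 3 of highest mean CPM, while CDKN2B, marker genes and overlapping genes fall outside that rule and were chosen with values seen. WEE1, PKMYT1 and FBXW7 also fall outside it and are named only to describe their list. The 10 genes and the lists were chosen with earlier results of these data known, and lists were described by counts and medians without a set test. CCNA1, CDK3, RBL1, TFDP3 and CKS1B were not analysed here. 1 further list is not reported here.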

Additional observations from a re-analysis of the deposited data

How the results depend on the processing

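Of 130 values of the 10 members over 13 alternative fits, 1 was called, CDKN2A with the block described at the end, and DESeq2 gave CCNE1 no adjusted p. CDK2, CCNE1, CDKN2A, CDKN2C and RB1 kept their direction in all fits, but their values ran from -0.30 to -0.03 for CDK2, 0.14 to 0.82 for CCNE1, 0.23 to 0.47 for CDKN2A, -0.44 to -0.07 for CDKN2C and -0.92 to -0.06 for RB1. For members near 0 the sign changed. Thinned once to the smallest library, log2 fold changes were 0.21 for CCND1, -0.10 for CCND2, -0.05 for CCND3, 0.00 for CDK4 and -0.11 for CDK6, and CCND2 was at -0.02 with library totals, -0.02 with no filter on low counts and -0.01 with DESeq2. Over the fits that left out a library, values ran from -0.16 to 0.02 for CCND1, -0.13 to 0.09 for CCND2, -0.10 to 0.27 for CCND3, -0.10 to 0.00 for CDK4 and -0.04 to 0.17 for CDK6. In the thinned draw RB1 was at -0.92 (adjusted p = 0.0615) and CCNE1 at 0.82. The cause was not tested. The count of called genes, 387, was 378 with library sizes from before the filter (an alternative chosen after seeing the data), 104 with the DESeq2 Wald test and 195 after thinning, and 138 to 333 without a library, lowest without batch A library 2 (138), batch A library 3 (152) and batch B library 2 (202). With counts divided by transcript length the CDK4 share of the kinases was 84.4% and the CDKN2A share of the inhibitors 89.9%. Mean CPM of the members moved by less than 1 SD with TMM scaling. Counts of 12 to 52 (RB1) and 16 to 25 (CCNE1) per library limit these genes most. The column numbers are tied to no labelled pairing. Deviations of same-numbered libraries from their batch means correlated at 0.01 (number 2) and -0.02 (number 3) across genes. With 2 libraries in batch A these values are not independent, and counting error can hide a shared effect. They cannot decide whether the column number marks a pairing. With that number as a replicate block, added after seeing the data and leaving 1 residual degree of freedom, 394 genes were called, CDKN2A was at 0.33 (edgeR adjusted p = 0.0497) and CCND3 at -0.05.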

Other observations

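Chromatin partners of RB1 were read from a list of 11 genes and had 0 calls by edgeR among the 11 tested, against 4.2% of all tested genes, with a median log2 fold change of 0.13 beside 0.004 over all tested genes. RBBP7, a histone-binding subunit of deacetylase complexes, averaged 451 ± 26.7 CPM in batch B and 391 ± 22.3 CPM in batch A, HDAC1 251 ± 15.7 and 269 ± 10.7 CPM, and HDAC2 213 ± 36.9 and 203 ± 10.8 CPM (SD, n = 3 and 2).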
